A study of Saccharomyces cerevisiae with 12 samples.

Results

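The 10 genes described here encode transporters of copper (*CTR1*, *CTR2*, *CTR3*), zinc (*ZRT1*, *ZRT2*, *ZRT3*, *COT1*) and manganese (*SMF1*, *SMF2*, *PMR1*) in the budding yeast *Saccharomyces cerevisiae*. They were chosen by gene symbol. Earlier results of these data were known when they and the gene lists below were chosen. All 10 were found, each with 1 probe set, among the 5716 *S. cerevisiae* probe sets that were tested. The study used 12 Affymetrix Yeast Genome 2.0 arrays to ask how aspirin alters the transcriptome of cells that lack the mitochondrial manganese superoxide dismutase (MnSOD). There were 3 biological replicates in each of 4 groups, namely untreated EG110, EG110 with aspirin, untreated EG103 and EG103 with aspirin. EG103 was the wild-type strain, a *MATα* strain with the alleles *ura3-52*, *trp1-289a*, *his3Δ1* and *leu2-3 112* that can use galactose (*GAL+*), and EG110 was the same strain with the MnSOD gene *SOD2* replaced by the marker *TRP1*. All cultures were grown aerobically for 48 h at 28 °C in YPE, a yeast extract and peptone medium with 3% ethanol as the carbon source. Aspirin (acetylsalicylic acid) was given at 15 mM.

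These groups set limits on what the comparisons can show. The medium with aspirin was brought to pH 5.5 with Trizma base, and no such adjustment is described for the medium without it, so the drug and the adjustment cannot be told apart. EG110 also carries *TRP1*, which EG103 lacks in working form, so the loss of *SOD2* and the gain of *TRP1* cannot be told apart either.

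Yeast takes up each of these metals through dedicated carriers and stores the surplus in the vacuole. Ctr1 and Ctr3 are high-affinity copper carriers of the plasma membrane, both induced by the copper-sensing activator Mac1 when copper is scarce, and Ctr2 returns copper from the vacuole to the cytosol. Zrt1 and Zrt2 are the high- and low-affinity zinc carriers of the plasma membrane. Zrt3 releases zinc from the vacuole, while Cot1 moves zinc and cobalt into it. Smf1 and Smf2 belong to the Nramp family of metal carriers, of which Smf1 can act at the cell surface and Smf2 sits in intracellular vesicles and supplies manganese to several enzymes, among them MnSOD. Pmr1 pumps calcium and manganese into the Golgi.

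Values are log2 expression after RMA (robust multi-array average), so that a difference of 1 is a doubling of the signal. Apart from the background and mating-type readings below, levels of different probe sets were not set against each other. A gene is called differentially expressed, or said to rise or fall, where limma's Benjamini-Hochberg-adjusted P was below 0.05 over all tested probe sets and the fold change was at least 1.5. The *SOD2* signal, which checks the strain labels, lay between 4.50 and 4.99 on the 6 EG110 arrays and between 14.19 and 14.40 on the 6 EG103 arrays. *STE3*, the a-factor receptor that only α cells make, averaged 10.40 to 12.03 in the 4 groups, and *STE2*, the receptor of the opposite mating type, 8.12 to 8.99. Over all 4 α-specific genes listed, group means ran from 9.21 (*MF(ALPHA)2*, untreated EG103) to 14.15 (*MF(ALPHA)1*, EG110 with aspirin). Over the 6 a-specific genes they ran from 6.34 (*ASG7*, EG110 with aspirin) to 9.56 (*MFA1*, EG103 with aspirin). These ranges overlap. Within a group the α-specific and a-specific means overlapped only in untreated EG103, where *MFA1* (9.525) stood above *MF(ALPHA)2* (9.21). In each other group every α-specific mean lay above every a-specific mean. Given the overlap, the levels alone do not settle the mating type. Every transporter gene was read at 8.49 or more on every array, against at most 5.50 for the 95th percentile of probe sets with no *S. cerevisiae* gene. Array medians ran from 11.15 to 11.18 in EG110 but from 11.36 to 11.39 in EG103, so between strains the median gene shifted by -0.20 without aspirin and by -0.19 with it. Probe sets with no *S. cerevisiae* gene were also lower in EG110, with array medians of 4.00 to 4.02 against 4.16 to 4.19 in EG103. The cause of the shift was not tested. Strain differences of the carriers and of the other genes named are therefore given as deposited and with each array centred on its median. With centred arrays, 754 of the 5716 were higher and 465 lower in EG110 without aspirin, and 685 and 582 with it.

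**Figure D1:**
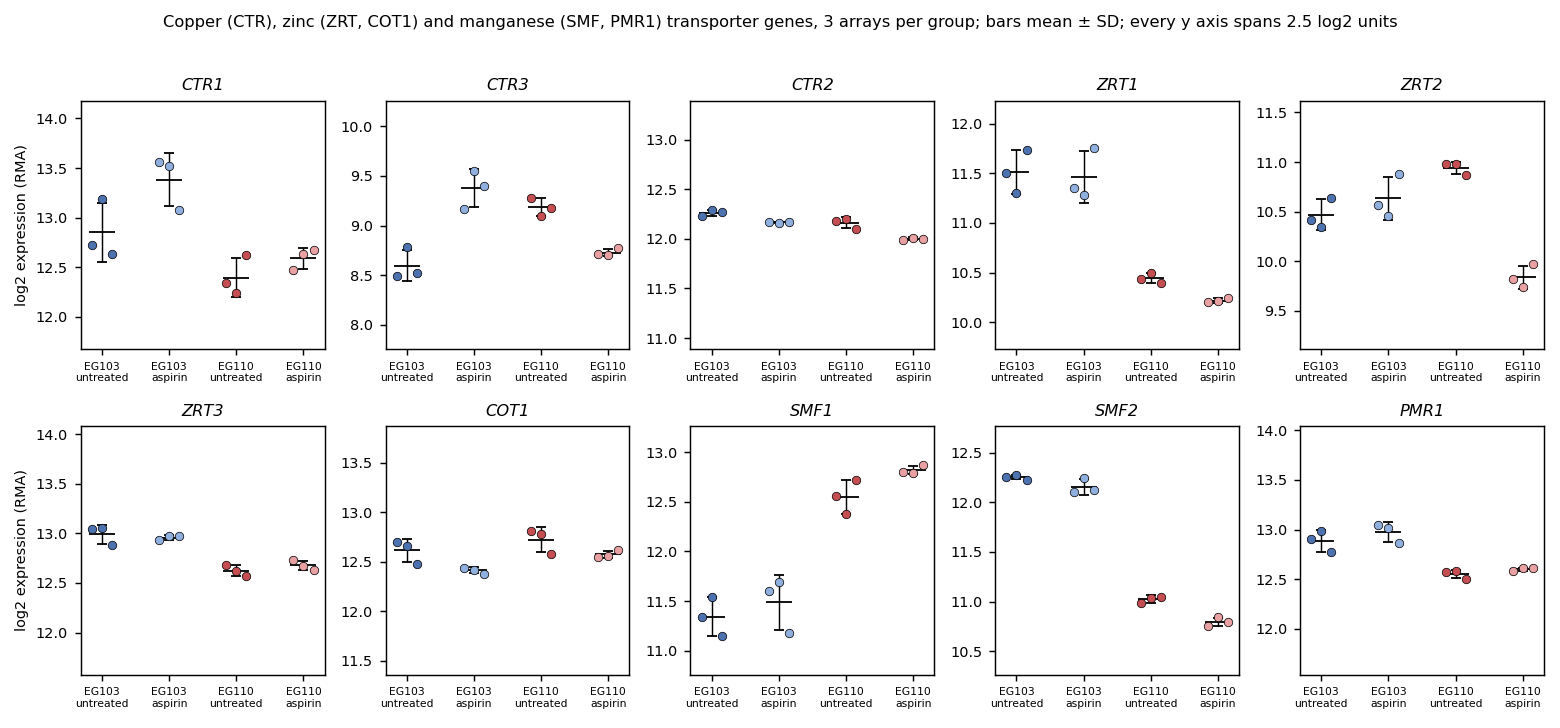
Log2 expression (vertical axis) of the 10 transporter genes on each of the 12 arrays, by group (horizontal axis), with points for single arrays and bars for the mean ± SD of 3. *SMF1*, *SMF2* and *ZRT1* separate by strain, whereas *ZRT2* is lowest in EG110 with aspirin and *CTR3* moves in opposite directions in the strains.

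Aspirin changed few of these genes within a strain, and a different one in each. In EG110, 1 of the 10 genes was differentially expressed (*ZRT2*, lower) and none was higher, against 6.09% lower and 5.90% higher among all tested probe sets. In EG103 it was also 1 of the 10 (*CTR3*, higher), against 2.61% of all, 1.75% being higher and 0.857% lower. The strain-by-aspirin interaction, which tests the difference between those aspirin effects, was past the thresholds for 2 of the 10 (*ZRT2* and *CTR3*, both negative), against 11.6% of all, 6.37% being negative. More of them differed between the strains. Without aspirin, 4 of the 10 were differentially expressed in EG110 relative to EG103 (*SMF1* and *CTR3* higher, *SMF2* and *ZRT1* lower), against 24.8% of all, 7.45% being higher and 17.4% lower. With aspirin it was 6 of the 10 (*SMF1* higher, and *SMF2*, *ZRT1*, *ZRT2*, *CTR1* and *CTR3* lower), against 25.1% of all, 7.03% being higher and 18.1% lower. With each array centred, 5 of the 10 were past the thresholds in each strain comparison, against 21.3% and 22.2% of all. The 2 aspirin comparisons share no arrays with each other, but the strain comparisons and the interaction reuse the same 12 arrays. Wherever 3 arrays lay entirely on one side of another 3, the two-sided exact permutation test gave P = 0.1, the smallest that 3 against 3 allows.

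**Figure D2:**
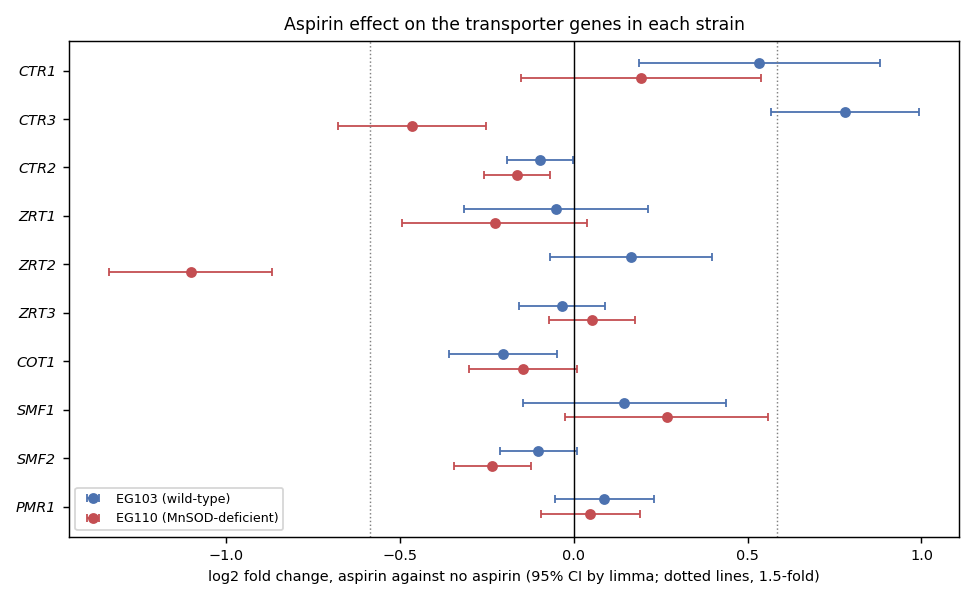
Log2 fold change with aspirin (horizontal axis) of each transporter gene in EG110 and in EG103, with 95% confidence intervals from limma. *ZRT2* in EG110 lies at -1.10 and *CTR3* in EG103 at 0.78, and the remaining values lie between -0.46 and 0.53.

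The Nramp carriers *SMF1* and *SMF2* showed the widest strain differences of the 10 genes, in opposite directions. *SMF1*, the Nramp carrier of the cell surface, was read at 12.56, 12.38 and 12.72 in untreated EG110 and at 11.34, 11.54 and 11.15 in untreated EG103. Every EG110 array stood above every EG103 array. *SMF1* was thus 2.31-fold higher in EG110 (log2 fold change 1.21 ± 0.13 SE, n = 3, limma adjusted P = 6.23e-06). With aspirin the arrays read 12.80, 12.79 and 12.87 in EG110 against 11.60, 11.69 and 11.18 in EG103. The groups again did not overlap, and the difference was 2.51-fold (1.33 ± 0.13 SE, limma adjusted P = 2.68e-06). Aspirin itself left *SMF1* within the thresholds, at 0.27 in EG110 (95% CI -0.02 to 0.56) and at 0.15 in EG103 (95% CI -0.15 to 0.44).

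*SMF2*, the Nramp carrier of intracellular vesicles, went the other way. Its 3 arrays read 10.99, 11.04 and 11.05 in untreated EG110 and 12.26, 12.28 and 12.23 in untreated EG103, with an SD of 0.04 and 0.02. The gap between strains was many times the spread within either. *SMF2* was 2.35-fold lower in EG110 (log2 fold change -1.23 ± 0.05 SE, limma adjusted P = 3.89e-09). With aspirin the readings were 10.75, 10.84 and 10.79 in EG110 and 12.10, 12.25 and 12.12 in EG103, a 2.57-fold difference (-1.36 ± 0.05 SE, limma adjusted P = 9.49e-10). In EG110 the 3 aspirin arrays all lay below the 3 untreated ones, at a log2 fold change of -0.23 (limma adjusted P = 0.00221) that did not reach the fold threshold. The strain differences of *SMF1* and *SMF2* kept their signs with centred arrays, at 1.43 and -1.01 without aspirin and at 1.53 and -1.16 with it.

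*PMR1*, the Golgi pump, differed less. Its readings were 12.57, 12.58 and 12.50 in untreated EG110 and 12.90, 12.99 and 12.77 in untreated EG103, without overlap. The strain difference of -0.34 (limma adjusted P = 0.000541) was below 1.5-fold, and with centred arrays it was -0.11 (limma adjusted P = 0.152). With aspirin *PMR1* read 12.58 to 12.61 in EG110 and 12.86 to 13.05 in EG103, and its aspirin log2 fold changes were 0.05 in EG110 (95% CI -0.09 to 0.19) and 0.09 in EG103 (95% CI -0.05 to 0.23).

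**Figure D3:**
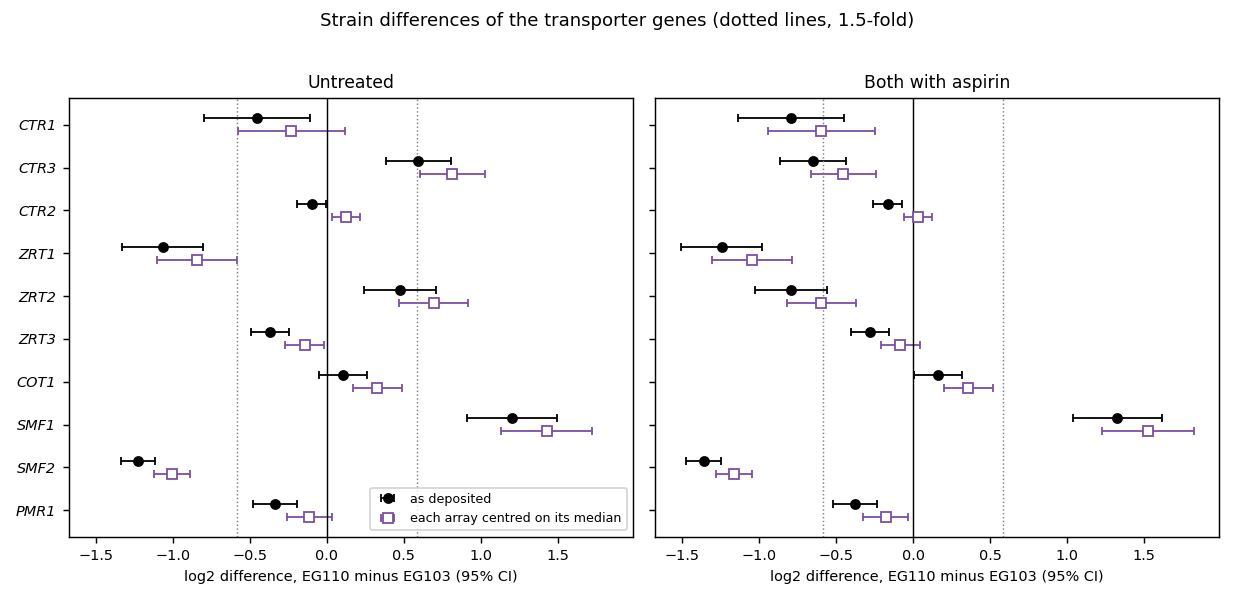
Log2 difference of EG110 over EG103 (horizontal axis) for each transporter gene, without and with aspirin, from the values as deposited and with each array centred on its median, with 95% confidence intervals from limma. *SMF1* lies above 1.2 and *SMF2* below -1.0 in every case shown, while *ZRT2* and *CTR3* lie above 0 without aspirin and below 0 with it.

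Of 11 other genes of manganese handling, *SOD2* included, 1 was higher and 3 were lower in untreated EG110 than in untreated EG103, against 7.45% and 17.4% of all. With centred arrays 3 were higher and 1, *SOD2*, was lower. The one higher as deposited was *PHO84*, a phosphate carrier that also lets manganese in. Its untreated EG110 arrays read 12.43, 13.20 and 11.49, a wide spread (SD 0.85, n = 3), and its untreated EG103 arrays 11.19, 10.43 and 11.35. The difference was 1.38 (limma adjusted P = 0.00317), and 1.60 with centred arrays, but the methods' t-test on the same arrays did not call it. The lower ones, besides *SOD2*, were *BSD2*, which directs Smf1 and Smf2 to the vacuole for breakdown, at -0.71 (limma adjusted P = 2.7e-07), and *SMF3*, the vacuolar Nramp carrier linked to iron, at -0.59 (limma adjusted P = 0.000352). With centred arrays neither reached 1.5-fold, at -0.49 and -0.37, while *ATX2*, a Golgi protein of manganese homeostasis, and *MTM1*, a mitochondrial carrier needed for MnSOD activity, did, at 0.66 and 0.64 (0.44 and 0.42 as deposited). *MTM1* is named after its values were seen. *SMF3* was also under 1.5-fold, at -0.58 to -0.52, without replicate 3 of untreated EG110 or replicate 1 or 2 of untreated EG103. *BSD2* read 11.90 to 11.99 on the untreated EG110 arrays and 12.58 to 12.74 on the untreated EG103 arrays.

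With aspirin, 1 of the 11 was higher in EG110 than in EG103, namely *ATX2* (0.74, limma adjusted P = 0.000185), and only *SOD2* was lower, against 7.03% and 18.1% of all. With centred arrays 2 were higher, *ATX2* at 0.94 and *MTM1* at 0.74 (0.55 as deposited), and *SOD2* alone was lower. Aspirin lowered *PHO84* 3.32-fold in EG110 (log2 fold change -1.73 ± 0.34 SE, limma adjusted P = 0.00126), where its aspirin arrays read 10.84, 10.60 and 10.49 and lay below all 3 untreated ones. This call was lost under the methods' t-test after adjustment (adjusted P = 0.058). In EG103 the *PHO84* difference was -0.95 (limma adjusted P = 0.0711), and the interaction was -0.78 (limma adjusted P = 0.244). None of the 11 was past the thresholds with aspirin in EG103 or in the interaction, against 2.61% and 11.6% of all. On limma adjusted P alone 0 and 2 of the 11 passed, against 20.6% and 33.1% of all.

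Of the zinc carriers, *ZRT2* was the one that aspirin changed, and only in EG110 was it past the thresholds. This low-affinity carrier was read at 10.98, 10.98 and 10.87 in untreated EG110 and at 9.82, 9.74 and 9.97 with aspirin. All 3 aspirin arrays lay about 1 log2 unit below the untreated ones. *ZRT2* fell by 1.10 on the log2 scale, a 2.15-fold decrease (95% CI -1.33 to -0.87, n = 3, limma adjusted P = 6.66e-06), the change that ranked 89 among the 5716 when counted from the lowest. In EG103 the readings were 10.42, 10.35 and 10.64 without aspirin and 10.57, 10.46 and 10.88 with it. Those groups overlapped, and the log2 fold change was 0.17 (95% CI -0.07 to 0.40, limma adjusted P = 0.295). The aspirin effects differed between the strains by -1.27 (95% CI -1.60 to -0.94, limma adjusted P = 8.23e-05).

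The order of the strains in *ZRT2* therefore turned with aspirin. Without it, EG110 was higher by 0.47 (limma adjusted P = 0.00168), which was under 1.5-fold as deposited and past it with centred arrays (0.69, limma adjusted P = 8.38e-05). With aspirin, EG110 was 1.73-fold lower (-0.79, limma adjusted P = 3.14e-05, and -0.60 with centred arrays). In neither condition did the strains' arrays overlap.

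*ZRT1*, the high-affinity carrier, differed by strain. It read 10.44, 10.50 and 10.40 in untreated EG110 and 11.50, 11.30 and 11.74 in untreated EG103. All EG110 arrays were below all EG103 arrays, by 2.10-fold on average (log2 fold change -1.07 ± 0.12 SE, limma adjusted P = 7.77e-06). With aspirin the arrays read 10.20, 10.21 and 10.24 in EG110 and 11.35, 11.28 and 11.76 in EG103, and the difference was 2.37-fold (-1.25 ± 0.12 SE, limma adjusted P = 2.08e-06). With centred arrays these differences were -0.85 and -1.05, both past the thresholds. Aspirin moved *ZRT1* by -0.23 in EG110 (95% CI -0.49 to 0.04, limma adjusted P = 0.136), where the 3 aspirin arrays nevertheless lay below the 3 untreated ones. In EG103 the log2 fold change was -0.05 (95% CI -0.32 to 0.22), and its sign turned when any of 3 single arrays was left out.

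The vacuolar zinc genes moved little. *ZRT3*, which releases vacuolar zinc, read 12.57 to 12.68 in untreated EG110, 12.63 to 12.73 in EG110 with aspirin, 12.88 to 13.05 in untreated EG103 and 12.93 to 12.97 in EG103 with aspirin. Its strain differences of -0.37 (limma adjusted P = 9.39e-05) and -0.28 (limma adjusted P = 0.000764) were under 1.5-fold, and with centred arrays they were -0.15 and -0.08. *COT1*, which fills the vacuole with zinc and cobalt, read 12.58 to 12.81, 12.55 to 12.62, 12.48 to 12.70 and 12.38 to 12.44 in the same order of groups. Its aspirin log2 fold changes were -0.15 in EG110 (95% CI -0.30 to 0.01) and -0.20 in EG103 (95% CI -0.36 to -0.05, limma adjusted P = 0.0645). Its strain differences were 0.11 (95% CI -0.05 to 0.26) and 0.16 (95% CI 0.01 to 0.32, limma adjusted P = 0.0577). With centred arrays they were 0.33 and 0.36.

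**Figure D4:**
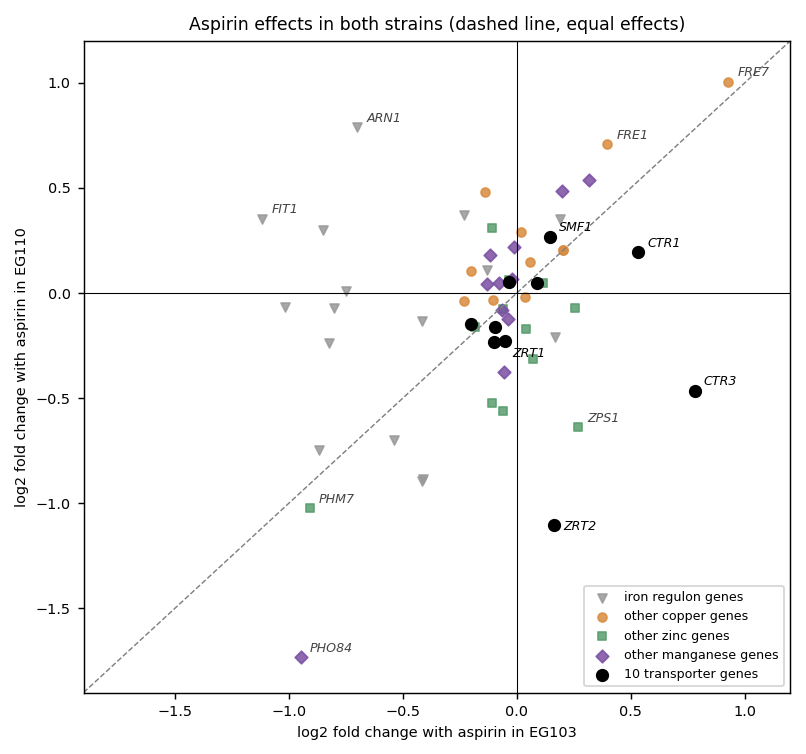
Log2 fold change with aspirin in EG110 (vertical axis) against that in EG103 (horizontal axis) for the 10 transporter genes (black) and the genes of the copper, zinc, manganese and iron lists (coloured), with a dashed line of equal effects. *ZRT2* (0.17 in EG103, -1.10 in EG110) and *CTR3* (0.78, -0.46) lie farthest from that line among the 10.

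A list of 12 other zinc genes holds several that the zinc-sensing activator Zap1 induces. Aspirin lowered 2 of them in EG110 and raised none, against 6.09% lower and 5.90% higher among all tested probe sets. *PHM7*, a membrane protein of poorly known role, fell by 1.02 (limma adjusted P = 0.000165), and *ZPS1*, a zinc-regulated cell surface protein, fell by 0.64 (limma adjusted P = 1.63e-05, but -0.58 and under 1.5-fold without replicate 1 of untreated EG110). On adjusted P alone, 6 of the 12 were lower and 1 was higher in EG110, against 25.1% lower and 27.2% higher among all tested probe sets. The higher one was *IZH2*, whose EG110 group means were 11.05 untreated and 11.36 with aspirin. The other 5 did not pass, among them *ADH4* at 0.06 (limma adjusted P = 0.474). *FET4*, a low-affinity carrier of iron, copper and zinc, stood at -0.56 (limma adjusted P = 0.000357), and *DPP1*, a vacuolar phosphatase induced by low zinc, at -0.52 (limma adjusted P = 8.2e-06). *FET4* was past 1.5-fold without replicate 2 of untreated EG110 (-0.67). Both were just under 1.5-fold on all arrays. They are named here after their values were seen, as are *IZH2*, *ADH4* and *ZAP1* itself. The *ZAP1* transcript had a log2 fold change of -0.17 with aspirin in EG110 (limma adjusted P = 0.0888).

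In EG103, *PHM7* was the 1 zinc gene that fell (log2 fold change -0.91, limma adjusted P = 0.00244, but 0.109 in the methods' t-test after adjustment), and *ZPS1* stood at 0.27 (limma adjusted P = 0.0204). The interaction was past the thresholds for *ZPS1* (-0.91, limma adjusted P = 4.55e-05), as it was for *ZRT2*. Among the 12, *ZPS1* was the 1 such call, against 11.6% of all tested probe sets. *ZPS1* read 11.33 ± 0.13 (SD, n = 3) in untreated EG110, 10.69 ± 0.09 in EG110 with aspirin, 11.25 ± 0.04 in untreated EG103 and 11.51 ± 0.07 in EG103 with aspirin. Between strains, *FET4* was lower in EG110 without aspirin (-0.65, limma adjusted P = 4.95e-05), but under 1.5-fold with centred arrays (-0.43) or without replicate 2 of untreated EG110 (-0.54). *FET4* and *ZPS1* were both lower in EG110 with aspirin (-1.15, limma adjusted P = 4.12e-07, and -0.82, limma adjusted P = 6.19e-07), and at -0.95 and -0.63 they stayed past 1.5-fold with centred arrays. As deposited that is 1 of the 12 lower without aspirin and 2 with it, and with centred arrays 0 and 2, against the shares of all given above. No other gene of the 12 was past the thresholds between the strains on either scale.

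Of the copper carriers of the plasma membrane, *CTR3* was the one whose aspirin effect differed between the strains past the thresholds. *CTR3* read 8.49, 8.78 and 8.52 in untreated EG103 and 9.17, 9.55 and 9.40 with aspirin. The aspirin arrays were all higher, and *CTR3* rose 1.72-fold (log2 fold change 0.78, 95% CI 0.57 to 0.99, limma adjusted P = 0.000379), which ranked 51 among the 5716 when counted from the highest. This call was lost under the methods' t-test after adjustment (adjusted P = 0.0718). In EG110 it read 9.28, 9.10 and 9.18 without aspirin and 8.71, 8.70 and 8.77 with it. Here the aspirin arrays were all lower, with a log2 fold change of -0.46 (95% CI -0.68 to -0.25, limma adjusted P = 0.00177) that stayed under 1.5-fold. The difference between the aspirin effects was -1.24 (95% CI -1.55 to -0.94, limma adjusted P = 5.15e-05). *CTR3* was the 1 gene of the 10 to drop out when the 25% of probe sets with the lowest mean were left out.

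Between strains, *CTR3* was 1.51-fold higher in EG110 without aspirin (0.59, limma adjusted P = 0.000155) and 1.57-fold lower with it (-0.65, limma adjusted P = 7.55e-05). Both values are close to the fold threshold. The first stood at 0.54 to 0.56, under 1.5-fold, without replicate 1 of untreated EG110 or without replicate 1 or 3 of untreated EG103. The second stood at -0.45 with centred arrays, and at -0.56 without replicate 2 of EG103 with aspirin.

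*CTR1*, the main copper carrier, read 12.73, 13.19 and 12.63 in untreated EG103 and 13.56, 13.52 and 13.08 with aspirin. Replicate 2 of the untreated cells was above replicate 3 of the treated ones, so the groups overlapped. The log2 fold change was 0.53 (95% CI 0.19 to 0.88, limma adjusted P = 0.0348), just under 1.5-fold, and the two-sided exact permutation test gave P = 0.2. It was past both thresholds without either of those 2 arrays (0.70 and 0.69), and the adjusted P rose to 0.108 or more when any of the other 4 arrays was left out. In EG110 *CTR1* read 12.34, 12.24 and 12.62 without aspirin and 12.47, 12.63 and 12.67 with it, a difference of 0.19 (95% CI -0.15 to 0.54). The difference between the aspirin effects on *CTR1* was -0.34 (95% CI -0.83 to 0.15, limma adjusted P = 0.275). EG110 was lower than EG103 in both conditions, at -0.45 without aspirin (limma adjusted P = 0.0214, under 1.5-fold) and at -0.79 with aspirin (1.73-fold lower, limma adjusted P = 0.000709). With centred arrays the values were -0.23 (limma adjusted P = 0.215) and -0.60 (limma adjusted P = 0.0056).

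*CTR2*, the vacuolar carrier, varied least. Its arrays read 12.10 to 12.20 in untreated EG110, 11.99 to 12.01 in EG110 with aspirin, 12.23 to 12.29 in untreated EG103 and 12.16 to 12.17 in EG103 with aspirin. The 4 groups did not overlap except that untreated EG110 spanned EG103 with aspirin. The aspirin log2 fold changes were -0.16 in EG110 (limma adjusted P = 0.0074) and -0.10 in EG103 (limma adjusted P = 0.133). The strain differences of -0.10 and -0.16 turned to 0.12 and 0.03 with centred arrays, so no direction between the strains can be given for *CTR2*.

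**Figure D5:**
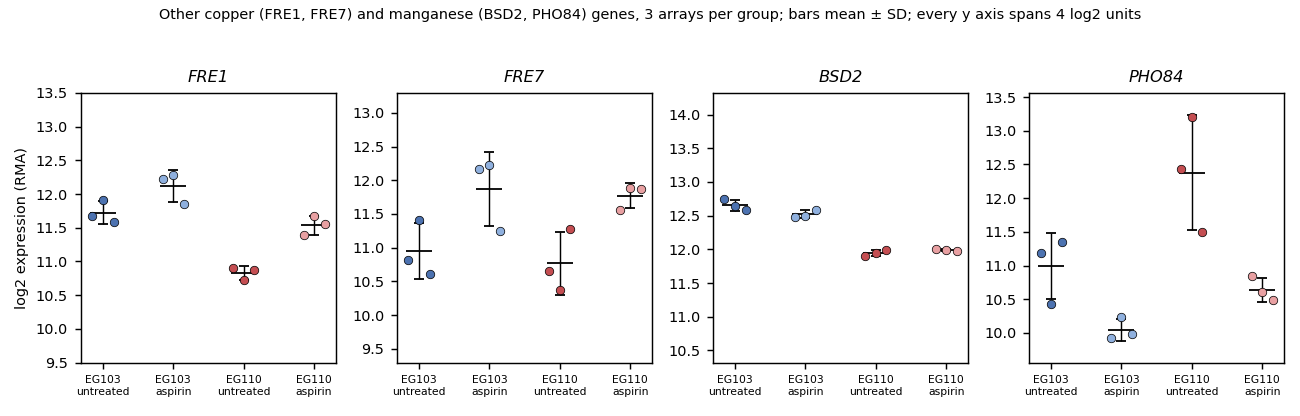
Log2 expression (vertical axes, each spanning 4 log2 units) of *FRE1*, *FRE7*, *BSD2* and *PHO84* on each of the 12 arrays, by group (horizontal axis), with points for single arrays and bars for the mean ± SD of 3. *FRE1* and *FRE7* were higher with aspirin in EG110, *BSD2* separates by strain, and the untreated EG110 arrays of *PHO84* spread from 11.49 to 13.20.

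Of the other copper genes, 12 were listed and read by 11 probe sets, since the metallothionein copies *CUP1-1* and *CUP1-2* share 1. Aspirin raised 2 of the 11 in EG110 and lowered none, against 5.90% higher and 6.09% lower among all tested probe sets. Both were metalloreductases that reduce copper and iron before uptake. *FRE7* read 10.66, 10.37 and 11.27 without aspirin and 11.56, 11.89 and 11.87 with it, a rise of 1.00 (limma adjusted P = 0.0117, but 0.0562 in the methods' t-test after adjustment). *FRE1* read 10.91, 10.72 and 10.87, then 11.39, 11.67 and 11.55, a rise of 0.71 (limma adjusted P = 0.000459). In both genes every aspirin array lay above every untreated one.

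In EG103, *FRE7* was the 1 copper gene past the thresholds, at 0.93 (limma adjusted P = 0.0416), against 2.61% of all tested probe sets. The *FRE7* call was not stable, since its limma adjusted P was 0.113 to 0.152 without any of 4 single arrays. With the replicate number as a block shared by both strains it was 0.0576. *FRE1* stood at 0.40 there (limma adjusted P = 0.0378), under 1.5-fold. Like *CTR1*, *FRE1* and *FRE7* were lowest among the 3 aspirin arrays of EG103 in replicate 3 (11.85 and 11.24) and highest among the untreated ones in replicate 2 (11.91 and 11.41). Neither reductase differed between the strains in its response to aspirin past the adjusted P, with *FRE1* at 0.31 (limma adjusted P = 0.188). The *MAC1* transcript, named after its values were seen, stood at -0.23 with aspirin in EG103 (limma adjusted P = 0.0269) and at -0.52 between the untreated strains (limma adjusted P = 1.37e-05, and -0.30 with centred arrays), each under 1.5-fold. Without replicate 3 of untreated EG110 the latter was -0.60 and past 1.5-fold.

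Between the untreated strains 2 of the 11 copper probe sets were lower in EG110 and none was higher, against 17.4% and 7.45% of all. They were *FRE1* (-0.89, limma adjusted P = 3.28e-05) and *CUP2*, the copper-sensing activator of metallothionein genes (-0.88, limma adjusted P = 2.47e-08). *CUP2* read 11.46 to 11.59 in untreated EG110 and 12.36 to 12.44 in untreated EG103. With aspirin, *CUP2* was again lower (-0.94, limma adjusted P = 1.14e-08), and *CRS5*, a metallothionein, was higher (0.67, limma adjusted P = 5.3e-06), against 18.1% and 7.03% of all. With centred arrays *CUP2* and *FRE1* were lower without aspirin (-0.66 and -0.67) and *CRS5* was also higher there (0.59, against 0.37 as deposited). With aspirin the centred values were -0.74 for *CUP2*, 0.87 for *CRS5* and 0.67 for *CCC2*, the Golgi copper pump, which at 0.47 was under 1.5-fold as deposited. The interaction was past the thresholds for *CCC2* at 0.62 (limma adjusted P = 0.000346), with aspirin log2 fold changes of 0.48 in EG110 and -0.14 in EG103. That is 1 of the 11, against 11.6% of all. Without replicate 3 of EG103 with aspirin the *CCC2* interaction was 0.57, under 1.5-fold.

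Iron genes were set beside these because *COT1* and several copper genes share regulators with iron uptake. Of 16 genes that the iron-sensing activator Aft1 induces, aspirin lowered 8 and raised none in EG103, against 0.857% lower and 1.75% higher among all tested probe sets. The largest falls were in *FIT1* and *FIT2*, mannoproteins of the cell wall that retain siderophores, in *TIS11*, which degrades mRNAs of iron-using proteins, and in *SIT1*, a siderophore carrier, at log2 fold changes of -1.12, -0.85, -1.02 and -0.87 (limma adjusted P of 0.00546 or less in each). The methods' t-test after adjustment gave 0.136 for *FIT1*, 0.0621 for *FIT2* and 0.0885 for *TIS11*, and still called *SIT1*. In EG110 4 of the 16 fell and 1 rose, against 6.09% and 5.90% of all. *HMX1*, the heme oxygenase, stood at -0.89, *ENB1* and *SIT1*, siderophore carriers, at -0.88 and -0.74, and *ARN1*, a siderophore carrier too, at 0.79.

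The interaction was past the thresholds in 7 of the 16, each with a positive sign, against 5.21% of all. It reached 1.49 for *ARN1*, 1.47 for *FIT1*, 1.15 for *FIT2* and 0.95 for *TIS11*. In EG103 *CTR3* thus rose in the same arrays in which these 8 iron genes fell. Between strains, 3 iron genes were higher and 3 lower in EG110 without aspirin, against 7.45% and 17.4% of all, and 4 were higher and 2 lower with it, against 7.03% and 18.1%. With centred arrays it was 3 higher and 1 lower without aspirin, and 6 higher and none lower with it. *ARN1* differed by 2.18 with aspirin (limma adjusted P = 2.83e-08), and by 2.37 with centred arrays. *SIT1*, lower at -0.69 as deposited, stood at -0.49 and under 1.5-fold with centred arrays.

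As a whole the 10 carriers had a median aspirin log2 fold change of -0.15 in EG110, against 0.02 for all tested probe sets, and of 0.03 in EG103, against 0.01. Their median strain difference was -0.22 without aspirin and -0.51 with it, against -0.20 and -0.19 for all. In EG110 the aspirin and untreated arrays did not overlap for 7 of the 10, against 62.0% of all, and in EG103 for 3 of the 10, against 39.0%. Between the strains the arrays did not overlap for 9 of the 10 without aspirin, against 73.1%, and for all 10 with aspirin, against 79.3%.

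The 4 group means spanned 1.47 log2 units for *SMF1*, 1.46 for *SMF2*, 1.30 for *ZRT1*, 1.10 for *ZRT2*, 0.99 for *CTR1* and 0.78 for *CTR3*, and at most 0.42 for *PMR1*, *ZRT3*, *COT1* and *CTR2*. Over the 12 arrays, the profiles most like *SMF1* among 5575 probe sets of a single gene were *YJL016W* (Pearson r = 0.988), *YER188C-A* (r = 0.987) and *MOH1* (r = 0.984). Those most like *SMF2* were *KHA1* (r = 0.997), *ERV46* (r = 0.996) and *SLA1* (r = 0.996), and those most like *ZRT1* were *AIP1* (r = 0.992), *OCA4* (r = 0.992) and *HLJ1* (r = 0.991). These coefficients describe 12 arrays that fall into 2 strains with a gap between them, and many genes with a strain difference share that shape.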

How the data were processed

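Expression was measured in 12 RNA samples on Affymetrix GeneChip Yeast Genome 2.0 arrays. The deposited table holds log2 values that the authors made with RMA (background correction, normalization between arrays and summary of probes) in AltAnalyze. Whether both strains were normalized together is not stated. Its columns of fold changes and P-values for aspirin are comparisons of the authors and were not used, and no array column was left unmapped. Of 10928 probe sets, 4999 without an *S. cerevisiae* gene and 213 controls were left out, and 5716 were tested. No genome build is named, and no sequences or coordinates were used here. All 10 symbols were matched in the RefSeq gene table.

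One linear model with 4 group means was fitted to all probe sets with limma 3.58.1 (lmFit and eBayes, R 4.3.3), and P-values were adjusted over 5716 by Benjamini-Hochberg in each of 5 comparisons. The thresholds (adjusted P below 0.05, fold change of at least 1.5) are those of the methods. The fit was tested on simulated data. The number of arrays (3 a group) limits the precision, and the median SD over tested probe sets was 0.06 to 0.09 by group. RMA pulls probe-level signals towards a common distribution and compresses changes of dim probe sets.

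Named were all 10 carriers, *SOD2*, up to 4 genes past the thresholds with the largest change in each list and comparison, and the 3 profiles most like each of the 3 carriers with the widest span. The carriers and the gene lists were chosen with earlier results of these data known. The labels number the replicates 1 to 3. In EG110, deviations of same-numbered aspirin and untreated arrays from their group means correlated at 0.23, 0.14 and 0.34 over probe sets. In EG103 the values were 0.02, 0.49 and 0.45. Differently numbered arrays reached 0.22 in EG110 and 0.18 in EG103. The methods state no pairing, so whether the numbers pair the arrays is not settled. The main model holds no replicate block in either strain, and its P-values ignore any such pairing. A block fitted as an alternative gave each replicate number 1 shift shared by all 4 groups. It therefore does not test pairing within a strain. Between strains, same-numbered untreated arrays correlated at 0.209, -0.285 and -0.141, and same-numbered aspirin arrays at -0.196, -0.091 and -0.121. Alternatives were the replicate block, centring, quantile normalization, a filter on low values, a trended robust eBayes, an ordinary unpaired t-test, a fit to 6 arrays, no fold threshold, and leaving out each array. The paper names moderated t-statistics for its arrays, and an unpaired two-tailed t-test under its table of array fold changes.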

Additional observations from a re-analysis of the deposited data

Results flagged for a closer look

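The effect of aspirin differed between EG110 and EG103, by limma's interaction term past both thresholds, for 2 of the 10 carriers. Of all tested probe sets, 11.6% passed the same thresholds. For *CTR3* the difference was -1.24 on the log2 scale, with all 3 aspirin arrays of EG103 above and all 3 of EG110 below their untreated arrays. For *ZRT2* it was -1.27, with all 3 aspirin arrays of EG110 below the untreated ones and overlapping groups in EG103.

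The same held for some genes of the other lists that the text names. It held for 1 of 12 zinc genes, 1 of 11 copper probe sets, 0 of 11 manganese genes and 7 of 16 iron genes. The share of all tested probe sets was 11.6%. The zinc-regulated *ZPS1* differed by -0.91 and the Golgi copper pump *CCC2* by 0.62. The iron genes *ARN1*, *FIT1*, *FIT2* and *TIS11* differed by 1.49, 1.47, 1.15 and 0.95.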

How the results depend on the processing

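Of 775 results for single carriers under an alternative, 743 kept their direction and their side of the thresholds, 7 lost a call, 15 gained one (11 of them because the fold threshold was dropped) and 10 reversed, none of which was called. *ZRT2* in EG110 ranged from -1.17 to -1.05 and its interaction from -1.36 to -1.15, and the *CTR3* interaction from -1.35 to -1.16, each called in every fit that held it. The filter on low values left out *CTR3*, so it called 0 carriers in EG103 and 1 in the interaction. It called 418, 97, 940 and 401 of the 4287 probe sets kept with aspirin in EG110, in EG103, between untreated strains and in the interaction. The ordinary t-test after adjustment called 0 carriers (*CTR3* adjusted P = 0.0718) and 60 probe sets in EG103. Without the fold threshold 4, 2 and 8 carriers were called with aspirin in EG110, in EG103 and between untreated strains, and 2987, 1175, 4151, 4149 and 1894 probe sets in EG110, in EG103, between strains without and with aspirin and in the interaction. Leaving out 1 array gave 1 carrier in EG110, 1 to 2 in EG103, 3 to 4 and 5 to 6 between strains and 2 in the interaction, with 664 to 720, 123 to 188, 1384 to 1533, 1377 to 1489 and 618 to 716 probe sets.

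With the replicate block 1, 1, 4, 6 and 2 carriers and 684, 146, 1418, 1434 and 662 probe sets were called in those 5 comparisons, and no carrier's call changed. That block was shared by both strains, so it does not test pairing within a strain. Centring gave 61.9% and 54.1% higher calls between strains without and with aspirin and quantile normalization 52.8% and 51.1%, against 30.0% and 28.0% as deposited. The *CTR2* strain difference turned to 0.124 and 0.122 without aspirin and to 0.033 and 0.082 with it under centring and quantile normalization. Leaving out 1 array, *ZRT1* with aspirin in EG103 ranged from -0.199 to 0.061 (above 0 without replicate 1 or 2 of the treated or replicate 3 of the untreated cells). The interactions ranged from -0.016 to 0.123 for *COT1* (below 0 without untreated EG110 replicate 3), from -0.035 to 0.224 for *SMF1* (below 0 without treated EG103 replicate 3) and from -0.099 to 0.018 for *PMR1* (above 0 without untreated EG103 replicate 3). The cause of these changes was not tested.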

Other observations

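In both EG103 groups replicate 3 stood at the edge of its group for several carriers. It was the highest of 3 for *ZRT1* (11.74 untreated, 11.76 with aspirin) and for *ZRT2* (10.64 and 10.88). It was the lowest of 3 for *SMF1* (11.15 and 11.18), *CTR1* (12.63 and 13.08), *PMR1* (12.77 and 12.86) and *COT1* (12.48 and 12.38). For *CTR3* it was in the middle in both groups (8.52 and 9.40). With 3 arrays any replicate often stands at an edge, and no share over all tested probe sets was computed. In EG110 the replicates numbered 3 were in part alike. Replicate 3 was the highest of 3 for *CTR1* (12.62 untreated, 12.67 with aspirin) and *SMF1* (12.72 and 12.87), the opposite of EG103. With aspirin it was also the highest for *ZRT1* (10.24) and *ZRT2* (9.97), and untreated it was the lowest for *PMR1* (12.50), as in EG103, whereas untreated it was the lowest for *ZRT1* (10.40) and *ZRT2* (10.87).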
